A study of Saccharomyces cerevisiae with 8 samples.

Results

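The 35 nuclear genes examined here encode the subunits of the respiratory chain and of the mitochondrial ATP synthase in *Saccharomyces cerevisiae*. They were taken by systematic name from the transcripts of annotated open reading frames (ORF-Ts) in a strand-specific RNA-Seq table, which lists 5753 ORF-Ts among 10054 transcripts. All 35 were found and none was removed by a filter. The table holds 4 libraries of a wild-type strain (WT), isogenic to BY4741, and 4 libraries of the *RRP6* deletion strain of the yeast knockout collection (*rrp6Δ*). All cells were grown in rich medium to an OD600 of 0.8. The 2 strains differ by the deletion of *RRP6*, which encodes the nuclear exonuclease of the RNA exosome. Each strain has preparations numbered 1 to 4, and the labels do not say what a number stands for.

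Respiration passes electrons from NADH and succinate through coenzyme Q, complex III, cytochrome c and complex IV to oxygen, and the proton gradient that results drives ATP synthase, also called complex V. Budding yeast lacks the proton-pumping complex I of most eukaryotes and uses the single-subunit internal NADH dehydrogenase Ndi1 in its place. A few core subunits are made in the mitochondrion and the others are imported from the cytosol. Their nuclear genes are classical targets of the Hap2, Hap3, Hap4 and Hap5 complex, which binds the sequence CCAAT. They are held low on glucose and induced when the sugar runs out.

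The members were 11 subunits of complex V, 9 of complex IV, 8 of complex III, the 4 subunits of complex II, both forms of cytochrome c, and *NDI1*. In complex V they were *ATP1*, *ATP2*, *ATP3*, *ATP15* and *ATP16* of the catalytic F1 part, and *ATP4*, *ATP5*, *ATP7*, *ATP14*, *ATP17* and *ATP20* of the stalk and membrane part. In complex IV they were *COX4*, *COX5A*, *COX5B*, *COX6*, *COX7*, *COX8*, *COX9*, *COX12* and *COX13*. In complex III they were *COR1*, *QCR2*, *QCR6*, *QCR7*, *QCR8*, *QCR9*, the iron-sulfur protein gene *RIP1* and the cytochrome c1 gene *CYT1*. Complex II, succinate dehydrogenase, was represented by *SDH1*, *SDH2*, *SDH3* and *SDH4*, and cytochrome c by *CYC1* and *CYC7*.

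A stretch shared by most of these genes was CCAATNA, where N stands for any base. It was searched on both strands in the 300 bases before each annotated transcript start, in the RefSeq R64 genome, which is the sacCer3 build of the table. It was present before 29 of the 35 members (82.9%) and before 849 of the 5753 ORF-Ts (14.8%). CCAAT alone, which every CCAATNA match contains, was present before 32 members (91.4%) and 2465 ORF-Ts (42.8%). A match in these letters is a description of the sequence and does not show that a factor binds there. The members without CCAATNA were *CYC1*, *CYC7*, *CYT1*, *SDH4*, *QCR2* and *QCR6*. Examples from each part of the pathway are shown because their transcripts return in the results. All read 5′ to 3′ on the strand of the transcript, the match is in capitals, and TNATTGG is CCAATNA on the other strand.
*NDI1*, minus strand, chrXIII:30003-30059: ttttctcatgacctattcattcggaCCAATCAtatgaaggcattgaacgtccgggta
*SDH3*, plus strand, chrXI:179493-179549: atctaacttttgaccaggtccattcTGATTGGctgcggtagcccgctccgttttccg
*RIP1*, plus strand, chrV:106988-107044: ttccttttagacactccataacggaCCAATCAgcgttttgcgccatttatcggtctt
*COX5A*, plus strand, chrXIV:531553-531609: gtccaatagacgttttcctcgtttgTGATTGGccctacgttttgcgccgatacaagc
*COX8*, minus strand, chrXII:910135-910191: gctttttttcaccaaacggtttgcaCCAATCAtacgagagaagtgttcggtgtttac
*ATP15*, plus strand, chrXVI:29921-29977: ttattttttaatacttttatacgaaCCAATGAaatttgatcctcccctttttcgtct
*ATP2*, plus strand, chrX:647201-647257: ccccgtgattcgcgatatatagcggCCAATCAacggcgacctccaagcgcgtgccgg
*QCR2*, plus strand, chrXVI:919171-919225, CCAAT only: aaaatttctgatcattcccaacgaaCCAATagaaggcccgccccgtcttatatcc

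Total counts were 6904004 to 11298227 per WT library and 8761140 to 12666126 per *rrp6Δ* library, with ORF-Ts at 46.2% to 62.7% of them. Values below are normalized counts, which are CPM values after scaling by edgeR's TMM factors over all transcripts. *RRP6* (YOR001W) was read 1787, 1030, 754 and 660 times in the WT libraries and 60, 31, 42 and 16 times in the *rrp6Δ* libraries, so the deletion libraries carry their label. The quasi-likelihood test of edgeR compared the strains, and a difference was called when it was at least 1.5-fold with a p under 0.05 and a Benjamini-Hochberg adjusted p, the false discovery rate or FDR over all 10054 transcripts, of at most 0.1. Of all ORF-Ts, 14.3% were called lower in *rrp6Δ* by this rule and 2.09% higher. TMM factors computed from ORF-Ts only moved the median log2 fold change of the other ORF-Ts from -0.32 to -0.0029 and left 2.59% of ORF-Ts lower. In bulk RNA, a lower share of cells expressing a gene and less of its RNA per cell cannot be told apart.

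In the main fit, which leaves out the preparation number, few of the respiratory transcripts differed between the strains by more than their spread between replicates. Only *COX5A*, of the 35, was called lower in *rrp6Δ* and none was called higher, where the share of ORF-Ts called lower was 14.3%. All 35 fitted log2 fold changes were below 0, from -1.06 for *SDH3* to -0.02 for *CYC7*, and 12 were past the fold threshold, as were 21.2% of ORF-Ts in that direction. Their median was -0.50, beside -0.32 over the other ORF-Ts. With TMM factors from ORF-Ts only, 9 of the 35 lay above 0, the median was -0.20 and none was called. For no member did all *rrp6Δ* libraries lie below all WT libraries, or above them, while 13.8% of ORF-Ts lay wholly below. Same-numbered libraries deviated together. When the number was fitted as a block, 12 members were called lower, where 19.4% of all ORF-Ts were. These were *ATP2*, *ATP3*, *ATP15*, *ATP17*, *COX4*, *COX5A*, *COX6*, *COX8*, *SDH1*, *SDH3*, *CYC1* and *NDI1*. With the block and ORF-T scaling together only *ATP15* was called, with 4.68% of ORF-Ts. The count also rested on single libraries. It was 11 without *rrp6Δ* replicate 4, where 14.3% of ORF-Ts were called lower, and 4 without WT replicate 2, where 16.0% were. Without any 1 of the other 6 libraries it was 0, beside 6.76% to 12.1% of ORF-Ts. It was 3 without both libraries numbered 4, beside 10.3% of ORF-Ts. Without WT replicate 4 the median log2 fold change of the members was -0.06, which is 0.14 above that of the other ORF-Ts. Without *rrp6Δ* replicate 4 it was -0.79. Each of these fits keeps a library numbered 4 in 1 strain only, so number and strain are mixed in it. Without both libraries numbered 4 the median was -0.34, and its difference from that of the other ORF-Ts was -0.08.

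**Figure D1:**
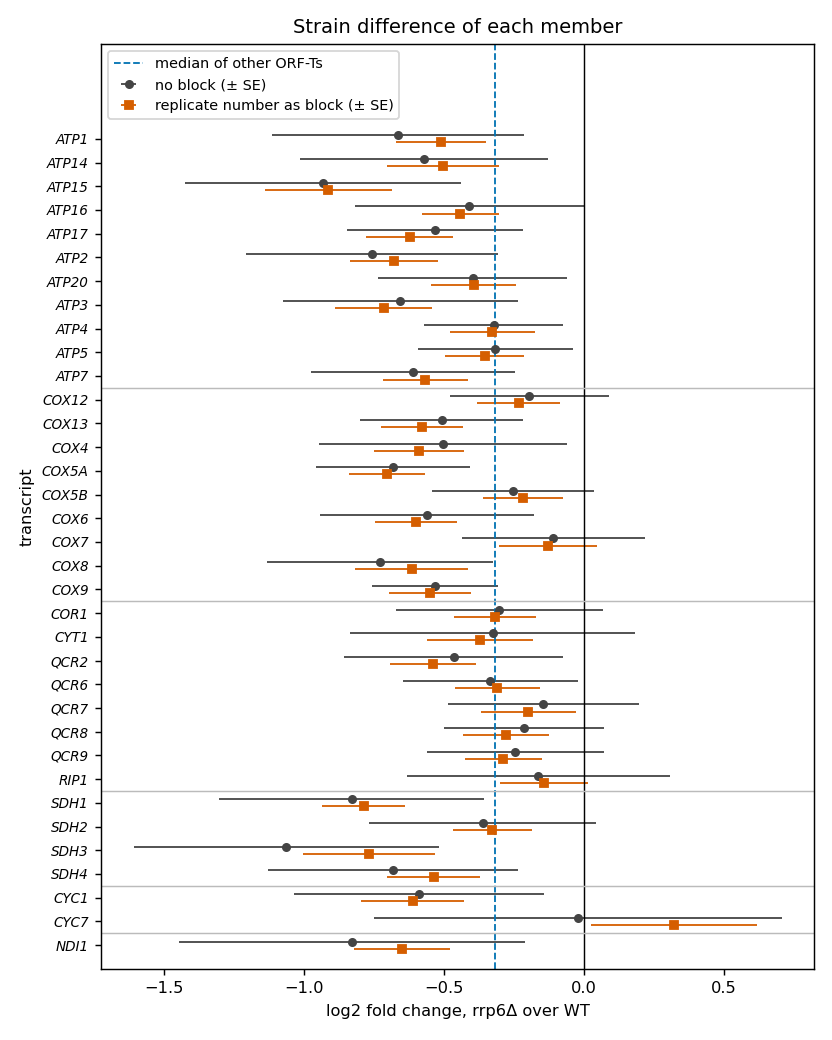
The log2 fold change of *rrp6Δ* over WT is on the horizontal axis for each of the 35 members, grouped by complex, as fitted without a block (circles) and with a block for the replicate number (squares), with standard errors. Without the block every point lies below 0, and the dashed line marks the median of the other ORF-Ts at -0.32.

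*COX5A* (YNL052W, chromosome XIV from 531691 to 532443, plus strand) encodes the form of subunit 5 of complex IV that is made in oxygen. Its normalized counts were 66.5, 46.8, 69.6 and 94.8 in WT, in the order of replicates 1 to 4 that is kept below, and 37.2, 29.7, 39.9 and 66.3 in *rrp6Δ*. Each *rrp6Δ* library lay below the WT library of its number, but *rrp6Δ* replicate 4 was above WT replicate 2. The log2 fold change was -0.68 (SE 0.27, FDR = 0.0807 in edgeR's test) and was -0.70 with the replicate block (FDR = 7.59e-04). With TMM factors from ORF-Ts only it was -0.37 (edgeR FDR = 0.35) and *COX5A* was not called. The block and ORF-T scaling together gave -0.39 (edgeR FDR = 0.0288), short of the fold threshold. *COX9*, a small subunit of the same complex, passed the FDR threshold but not the fold, with a log2 fold change of -0.53 (SE 0.23, edgeR FDR = 0.0958).

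Within complex IV the most and the least negative changes were those of *COX8* and *COX7*, which encode small membrane-spanning subunits. *COX8* (YLR395C) had normalized counts of 16.1, 14.1, 19.4 and 50.4 in WT and 11.6, 9.15, 19.7 and 19.7 in *rrp6Δ*. WT replicate 4 stood above the other 7 libraries, which overlapped. The log2 fold change of *COX8* was -0.73 (SE 0.40, edgeR FDR = 0.192), and -0.61 with the block (FDR = 0.0204). It was -0.063 without WT replicate 4, a fit that keeps number 4 in *rrp6Δ* only, and -0.22 without both libraries numbered 4. *COX7* (YMR256C) had 7.53, 14.1, 15.8 and 17.0 in WT and 7.20, 10.1, 16.4 and 16.7 in *rrp6Δ*. The strains covered nearly the same range, with replicate 1 lowest in both (log2 fold change -0.11, SE 0.33). Among the others, *COX6* was at -0.56, *COX13* at -0.51, *COX4* at -0.50, *COX5B* at -0.25 and *COX12* at -0.19, none of them called.

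Complex II had a median log2 fold change of -0.75, below the medians of complexes V (-0.57), IV (-0.51) and III (-0.27). This order rested on the libraries numbered 4. Without WT replicate 4 the medians were 0.054, -0.14, -0.095 and 0.052 for complexes II, V, IV and III, and without both libraries numbered 4 they were -0.32, -0.35, -0.60 and -0.24. Differences between complexes were not tested. *SDH3* (YKL141W, chromosome XI from 179626 to 180365, plus strand) encodes a membrane anchor of succinate dehydrogenase. Its normalized counts were 10.2, 5.78, 9.62 and 42.8 in WT and 6.96, 5.30, 6.80 and 13.6 in *rrp6Δ*. Replicate 4 was the highest in each strain, with the WT value far above that of *rrp6Δ*. The log2 fold change was -1.06 (SE 0.54, edgeR FDR = 0.159), and -0.77 (FDR = 0.0145) with the block. It was -0.0034 without WT replicate 4, a fit that keeps number 4 in *rrp6Δ* only, and -0.36 without both libraries numbered 4. *SDH2* (YLL041C), the iron-sulfur subunit, had 35.5, 36.3, 49.6 and 111 in WT and 27.2, 28.9, 48.3 and 76.2 in *rrp6Δ*. The strains overlapped and again replicate 4 was highest in each (log2 fold change -0.36, SE 0.40, edgeR FDR = 0.506). Without WT replicate 4 the value of *SDH2* was 0.23, and without both libraries numbered 4 it was -0.15. *SDH1*, the flavoprotein, and *SDH4*, the other anchor, were at -0.83 and -0.68 without a call.

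In complex III no member was called with or without the block. *QCR2* (YPR191W), a core protein, had the most negative value. Its normalized counts were 142, 75.3, 164 and 220 in WT and 76.1, 54.3, 105 and 200 in *rrp6Δ*, so the strains overlapped and number 2 was lowest in both (log2 fold change -0.46, SE 0.39, edgeR FDR = 0.376). *QCR7* (YDR529C), a small subunit, had 134, 83.2, 184 and 183 in WT and 75.1, 86.4, 165 and 203 in *rrp6Δ*. It was higher in WT in numbers 1 and 3 and higher in *rrp6Δ* in numbers 2 and 4 (log2 fold change -0.14, SE 0.34). The other 6 lay between -0.16 for *RIP1* and -0.33 for *QCR6*.

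In complex V the range ran from *ATP15*, the epsilon subunit of F1, to *ATP5*, the subunit that joins the stalk to F1. *ATP15* (YPL271W, chromosome XVI from 30058 to 30384, plus strand) had normalized counts of 8.21, 7.67, 8.74 and 27.1 in WT and 2.93, 4.68, 7.25 and 12.3 in *rrp6Δ*. Each *rrp6Δ* library was below the WT library of its number, and only *rrp6Δ* replicate 4 was above any WT library. Its log2 fold change was -0.93 (SE 0.49, edgeR FDR = 0.171), and -0.91 (FDR = 0.00424) with the block. It was -0.21 without WT replicate 4, a fit that keeps number 4 in *rrp6Δ* only, and -0.66 without both libraries numbered 4. *ATP5* (YDR298C) had 154, 123, 189 and 224 in WT and 107, 88.9, 158 and 201 in *rrp6Δ*. The ranges overlapped while each number was lower in *rrp6Δ* (log2 fold change -0.32, SE 0.28, edgeR FDR = 0.395). The other 9, among them the catalytic *ATP2* at -0.76 and *ATP1* at -0.66, lay between -0.76 and -0.32.

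*NDI1* (YML120C, chromosome XIII from 27932 to 29897, minus strand) had normalized counts of 11.5, 11.4, 13.8 and 67.1 in WT and 7.57, 9.15, 9.74 and 32.0 in *rrp6Δ*. Replicate 4 stood far above the others in each strain, and within each number *rrp6Δ* was lower. The log2 fold change was -0.83 (SE 0.62, edgeR FDR = 0.320) and was -0.65 with the block (FDR = 0.00626). Without WT replicate 4, a fit that keeps number 4 in *rrp6Δ* only, it was 0.33. Without both libraries numbered 4 it was -0.40.

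Compared within a number, *rrp6Δ* was below WT for 34, 31, 30 and 33 of the 35 members in numbers 1 to 4, and for 78.6%, 79.6%, 78.5% and 69.5% of the other ORF-Ts. The median log2 ratios were -0.66, -0.37, -0.33 and -0.31, and those of the other ORF-Ts were -0.30, -0.34, -0.31 and -0.23. The gap to the other ORF-Ts was widest in number 1. In 26 members the ratio was below 0 in all 4 numbers, as in 46.2% of the other ORF-Ts, and in none was it above 0 in all 4, as in 4.42% of the others.

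The members varied together between the replicate numbers. In a test of the replicate number with strain in the model, an edgeR F test over the 3 number terms that was added after the data were seen, all 35 members passed an FDR of 0.1, where 31.9% of ORF-Ts did. At an FDR of 0.05 it was 33 members and 20.7% of ORF-Ts. Scaled by ORF-Ts only, 34 members and 32.8% of ORF-Ts passed. The members are well expressed, but among the 1882 ORF-Ts at or above the median member in mean normalized count 35.9% passed. Without the libraries numbered 4, 26 of the 35 passed, where 20.1% of ORF-Ts did.

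Number 4 was the highest of the 4 numbers for 34 members and for 40.8% of ORF-Ts. The exception was *COX9*, highest in number 3. In WT alone replicate 4 was highest for 30 of 35 members (39.6% of ORF-Ts), and in *rrp6Δ* alone replicate 4 was highest for all 35 (38.3%). Number 2 was lowest for 24 members and number 1 for 11. On the log2 scale the median member lay -0.40, -0.55, 0.18 and 0.86 from its mean in numbers 1 to 4, where the median ORF-T lay 0.00, -0.06, -0.02 and 0.08. As a share of all ORF-T counts, the members held 0.392%, 0.300%, 0.471% and 0.842% in WT and 0.328%, 0.315%, 0.525% and 0.701% in *rrp6Δ*. The share does not depend on the scaling, and in each strain it was highest in replicate 4 and lowest in replicate 2. What differed between the numbered preparations was not tested.

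**Figure D2:**
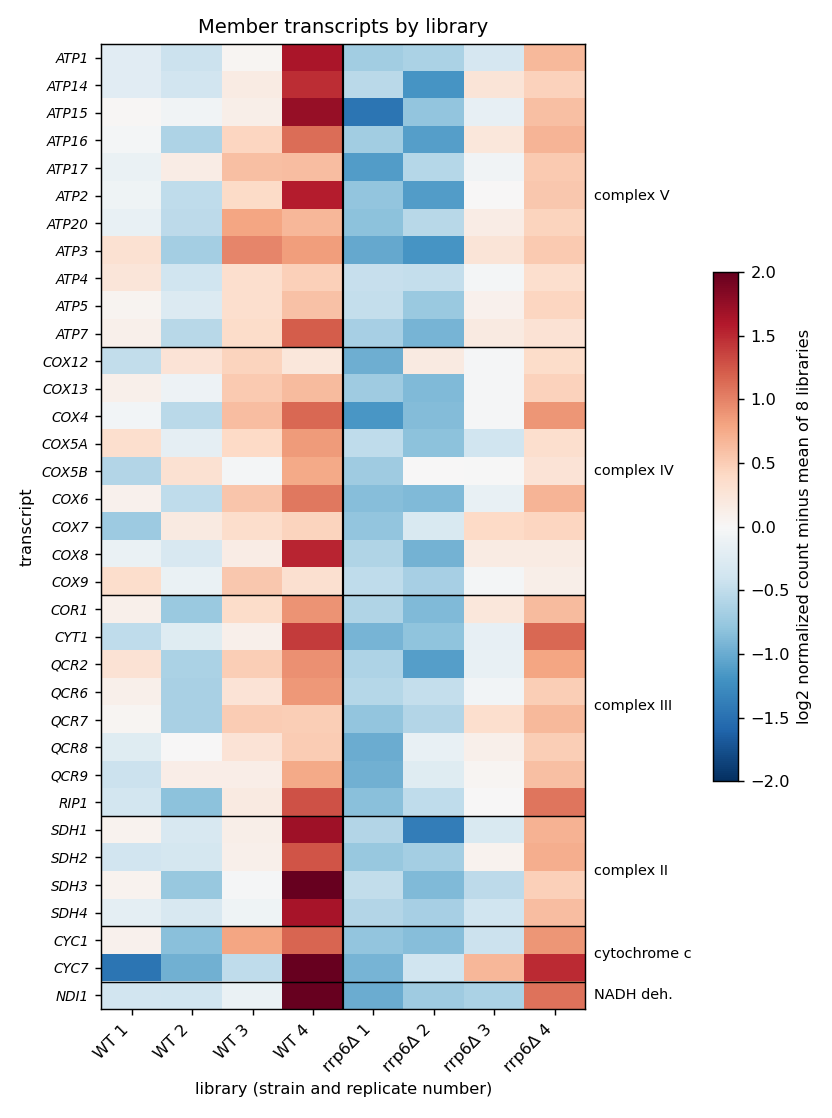
Each row is 1 of the 35 members and each column 1 library, and the colour gives the log2 normalized count minus the mean of that row over the 8 libraries (colours stop at -2 and 2). Replicate 4 is red in both strains and most cells of replicates 1 and 2 of *rrp6Δ* are blue, in every complex.

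Number 4 stood out to a different extent from member to member. WT replicate 4 was a median of 1.96-fold over the median of WT replicates 1 to 3, from 0.964-fold for *COX12*, a peripheral subunit of complex IV, to 8.26-fold for *CYC7*. In *rrp6Δ* the same ratio had a median of 2.30, from 1.22 for *COX5B* to 3.88 for *CYT1*. By complex, the median deviation of number 4 on the log2 scale was 1.17 for complex II, 0.75 for complex V, 0.72 for complex III and 0.56 for complex IV, differences that were not tested. *NDI1* had 1.63 and *CYC7* 1.79, the highest of the 35. *ATP1* and *ATP2*, the alpha and beta subunits of F1, reached 543 and 737 normalized counts in WT replicate 4, from 130 and 176 in WT replicate 2. The smallest spread between numbers was that of *COX9* (0.65 on the log2 scale) and the widest that of *CYC7* (3.01), with a median of 1.57 beside 0.64 for all ORF-Ts.

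**Figure D3:**
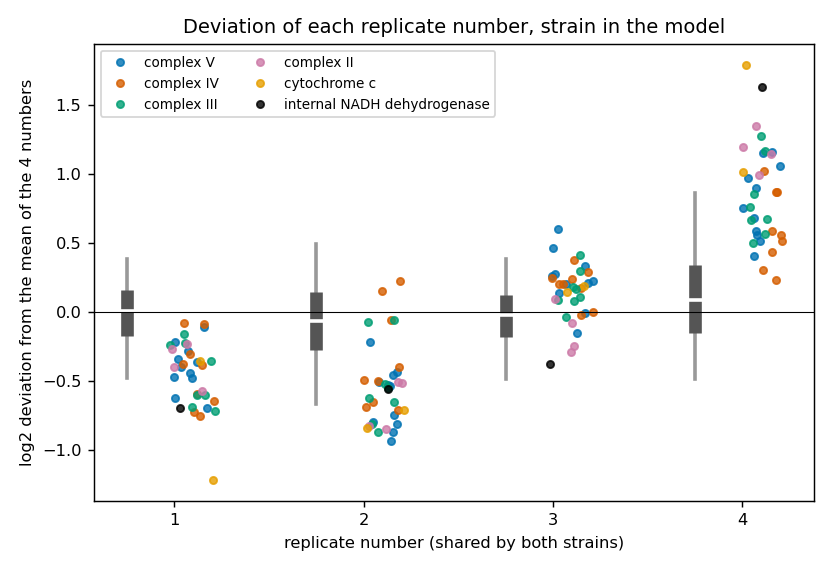
For each replicate number the coloured points give the deviation of the 35 members from their mean over the 4 numbers, on the log2 scale with strain in the model. The dark bars run from the 25th to the 75th percentile of all ORF-Ts with the median in white, and thin lines run from the 5th to the 95th percentile. In number 4 the members run from 0.23 to 1.79.

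Levels per kilobase also differed among the subunits. Averaged over WT, they ran from 7.79 normalized counts per kb for *CYT1* to 240 for *QCR7*, both of complex III. The median was 124 for complex V, 89.2 for complex IV, 82.5 for complex III and 32.3 for complex II. These are levels and not differences between strains.

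*HAP4*, which encodes the regulated activating subunit of the CCAAT-binding complex, was measured in the same libraries. Its normalized counts were 35.4, 19.9, 27.4 and 115 in WT and 16.5, 12.4, 24.4 and 48.5 in *rrp6Δ*. Replicate 4 was highest and replicate 2 lowest in each strain. Its number 4 deviation was 1.35 (edgeR FDR of the number test 0.00013), and its strain difference of -0.96 (SE 0.53) had an edgeR FDR of 0.192. With the block *HAP4* was called lower (-0.82, FDR = 0.00167). The genes of the other subunits of that complex, *HAP2*, *HAP3* and *HAP5*, did not pass the number test (edgeR FDR = 0.251, 0.576 and 0.355). Their number 4 deviations were 0.50, 0.19 and 0.31. *HAP1* passed (edgeR FDR = 0.00313) with number 2 highest. Of the 6 HAP and oxygen regulators 3 passed, beside 31.9% of ORF-Ts. Among the 6 HAP and oxygen regulators, 3 were called lower in *rrp6Δ*, beside 14.3% of ORF-Ts. These were *ROX1* (-1.81), *HAP5* (-0.81) and *HAP2*, and *HAP4* was added to them with the block, beside 19.4% of ORF-Ts. With TMM factors from ORF-Ts only, *ROX1* was the one of the 6 called, beside 2.59% of ORF-Ts lower. Among the other ORF-Ts, 34.1% of those with a CCAATNA match and 31.0% of those without passed the number test, with a median number 4 deviation of 0.08 in each.

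**Figure D4:**
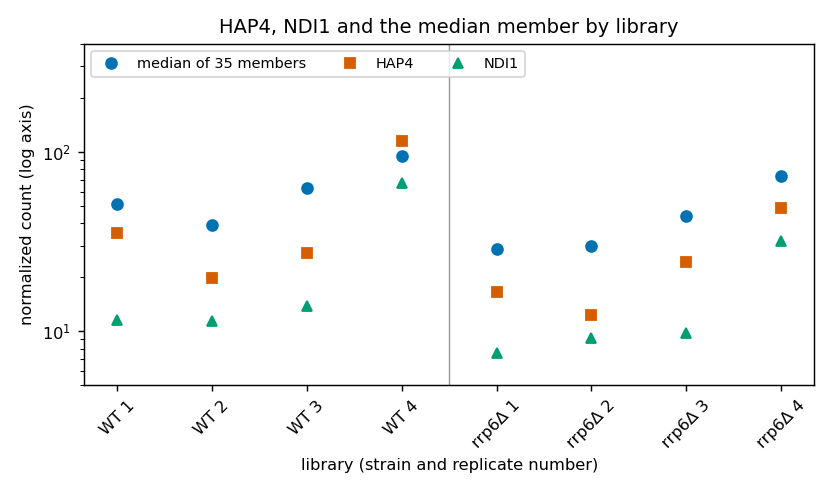
Normalized counts on a log axis for *HAP4*, *NDI1* and the median of the 35 members in each of the 8 libraries. Replicate 4 is the highest point of each series in both strains, at 115 and 48.5 for *HAP4* in WT and *rrp6Δ*.

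Genes around the respiratory chain were counted from lists chosen by function. All 11 genes of the TCA cycle passed the number test, 10 of them with number 4 highest, and 2 were called lower in *rrp6Δ*, *FUM1* (-0.80) and *LPD1* (-0.73). All 13 glucose-repressed genes passed it too, but only 7 had number 4 highest, and 3 were called lower, with *ADH2* (-1.77) and *MLS1* (-1.05) the largest. The 3 genes for inhibitors of ATP synthase and their helpers all passed with number 4 highest, and none was called between the strains. Of the 18 assembly factors of complex IV, 10 passed the number test and 4 were called lower in *rrp6Δ*, led by *PET117* (-1.34) and *COX23* (-0.82). Of the 17 assembly factors of the other complexes, 9 passed and none was called. Coenzyme Q synthesis had 6 of 9 and no call, and the ADP/ATP and phosphate carriers 2 of 4 with *AAC3* (-1.13) and *MIR1* (-0.70) lower. These shares of calls stand beside the 14.3% and 31.9% of all ORF-Ts. With the replicate block, where 19.4% of ORF-Ts were lower, the calls were 4 in the TCA cycle, 6 among the glucose-repressed genes and 1 among the ATP synthase inhibitors (*STF1*). They were then 5 for complex IV assembly, 3 for the other assembly factors, 1 for coenzyme Q synthesis (*COQ9*, -0.60, FDR = 0.0370) and 3 for the carriers. With TMM factors from ORF-Ts only, where 2.59% of ORF-Ts were lower, *ADH2* was the one gene of these 7 lists that was called.

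The list of small subunits not among the members (*TIM11*, *ATP18*, *ATP19* and *QCR10*) gave no call between the strains, and 3 of 4 passed the number test. With the block *ATP18* was called lower (-0.67, FDR = 0.0402). Of 5 other electron donors *CYB2*, the lactate dehydrogenase that reduces cytochrome c, was called lower (-1.13). Among the 3 complex II paralogs, *SDH9* was called lower (-1.43) and *SHH3* higher (1.18). *SDH1* and *SDH9* share 75.2% of their aligned coding bases, with a longest common run of 23 bases, and *SDH3* and *SHH3* 53.9%, with a run of 10. Of 4 hypoxic genes, *TIR1* (-1.88) and *ANB1* (-1.44) were called lower. The a-specific genes, which mark the mating type of BY4741, had 1 call of 6, 5 passed the number test, and number 4 was highest for all 6. Of all ORF-Ts, 14.3% were called lower and 2.09% higher, 31.9% passed the number test and 40.8% had number 4 highest. With the block 3 hypoxic and 3 a-specific genes were lower, beside 19.4% of ORF-Ts. With TMM factors from ORF-Ts only, *ANB1* was the one gene of the small subunits, electron donors, paralogs, hypoxic and a-specific genes still called lower. There *SHH3* was still higher, and 2.59% of ORF-Ts were lower. Of the 2 alpha-specific genes and 2 auxotrophic marker genes measured, none was called. *URA3*, which BY4741 lacks, had 4.21 to 11.6 normalized counts, and the source of these reads was not tested.

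Yeast makes both cytochrome c and subunit 5 of complex IV in 2 forms, *CYC1* and *COX5A* in oxygen and *CYC7* and *COX5B* when it is scarce. *CYC1* (YJR048W, chromosome X from 526289 to 526838, plus strand) had normalized counts of 29.2, 15.3, 47.4 and 61.8 in WT and 16.0, 15.2, 20.4 and 50.7 in *rrp6Δ*. Numbers 1, 3 and 4 were lower in *rrp6Δ*, and number 2 was almost level (log2 fold change -0.59, SE 0.45, edgeR FDR = 0.330). With the block it was -0.61 (FDR = 0.0137). *CYC7* (YEL039C, chromosome V from 79554 to 80125, minus strand) had 1.61, 2.26, 3.11 and 18.7 in WT and 2.32, 3.33, 6.95 and 12.4 in *rrp6Δ*. It was the only member above WT in *rrp6Δ* in each of numbers 1 to 3, and it was below WT in number 4. The log2 fold change was -0.02 (SE 0.73, edgeR FDR = 0.984). Without WT replicate 4 it was 1.52 and called higher (edgeR FDR = 0.0589), where 2.49% of ORF-Ts were higher. This was the one call of a rise among the members under any setting. That fit keeps number 4 in *rrp6Δ* only. Neither without both libraries numbered 4 (0.95, edgeR FDR = 0.15) nor with the block (0.32, edgeR FDR = 0.37) was *CYC7* called.

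*COX5B* (YIL111W) had 21.2, 39.2, 30.9 and 53.7 in WT and 19.5, 32.1, 31.6 and 38.6 in *rrp6Δ*, ranges that overlapped (log2 fold change -0.25, SE 0.29, edgeR FDR = 0.515). As a share of *COX5A* and *COX5B* counts together, which does not depend on scaling, *COX5B* was 24.2%, 45.6%, 30.8% and 36.2% in WT and 34.4%, 51.9%, 44.1% and 36.8% in *rrp6Δ*. It was higher in *rrp6Δ* in 4 of 4 numbers, by 7.63 points on average. A test that leaves out the number did not separate the strains (two-sided exact permutation p = 0.2571, n = 4 each). Leaving out 1 library gave differences from 4.26 points without *rrp6Δ* replicate 2, and 4.31 without WT replicate 1, to 11.4 without WT replicate 2. *CYC7* was 5.22%, 12.9%, 6.16% and 23.2% of both cytochrome c transcripts in WT and 12.7%, 18.0%, 25.4% and 19.7% in *rrp6Δ*. This was 7.08 points higher in *rrp6Δ*, in 3 of 4 numbers (exact permutation p = 0.2, n = 4 each, 2 shares compared). It ran from 4.87 points without WT replicate 1 to 10.9 without WT replicate 4. The smallest p that 70 arrangements allow is 0.0286. For both shares the arrangements exchange libraries across numbers, so the spread between numbers enters these p-values. The shares were not tested within numbers. *CYC1* and *CYC7* share 74.9% of their aligned coding bases with a longest common run of 35 bases, and *COX5A* and *COX5B* 65.5% with a run of 12. Reads of 75 bases are longer than these runs.

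Several noncoding transcripts lie opposite to respiratory genes. They carry the names CUT (cryptic unstable), SUT (stable unannotated) and NUT (Nrd1-unterminated transcript). On the opposite strand, 10 of these rows overlapped 8 members by at least 100 bases. Of the 10, 5 were called higher in *rrp6Δ* and none lower, in a table where 60.0% of NUTs, CUTs and SUTs were called higher. They covered 4 members, *ATP14*, *ATP16*, *COX5A* and *CYC1*. Of these members only *COX5A* was called lower without the block, and *COX5A* and *CYC1* with it.

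NUT0539 (chromosome XII from 721716 to 722959, plus strand) spans the whole of *ATP14*, a stalk subunit gene. Its counts were 21, 23, 25 and 2 in WT and 129, 103, 117 and 56 in *rrp6Δ*. Every *rrp6Δ* library was above every WT library, and WT replicate 4 had almost none (log2 fold change 1.92, SE 0.49, edgeR FDR = 0.0109). *ATP14* itself had normalized counts of 11.1, 9.93, 14.5 and 36.3 in WT and 8.97, 5.72, 15.5 and 17.9 in *rrp6Δ*. In *rrp6Δ* replicate 2 NUT0539 had 187 counts per 100 counts of *ATP14*, and in WT replicate 4 it had 0.787. CUT270 lies within NUT0539 and shares its reads (log2 fold change 2.17).

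NUT0896, opposite to *ATP16*, the delta subunit gene of F1, had the largest rise of the 10. Its counts were 13, 12, 14 and 3 in WT and 101, 150, 198 and 82 in *rrp6Δ*, with no overlap between the strains (log2 fold change 3.12, SE 0.45, edgeR FDR = 5.56e-04). *ATP16* was not called (log2 fold change -0.41, SE 0.41). SUT641, opposite to *CYC1*, had counts of 35, 37, 26 and 20 in WT and 186, 144, 129 and 63 in *rrp6Δ*. Again no library of 1 strain reached the other (log2 fold change 1.56, SE 0.32, edgeR FDR = 0.00366). In *rrp6Δ* replicate 2 it had 98.6 counts per 100 counts of *CYC1*. NUT1369, opposite to *COX5A*, was low, with counts of 6, 2, 2 and 3 in WT and 24, 6, 12 and 10 in *rrp6Δ*, or 0.426 to 3.93 counts per 100 of *COX5A* (log2 fold change 1.38, SE 0.47, edgeR FDR = 0.0437).

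The rows over *COX12*, *COX9*, *COX5B* and *CYT1* were not called. Among them SUT777, opposite to *CYT1* over 1105 bases, passed the number test in the direction opposite to that of the gene it faces. It had counts of 59, 38, 29 and 5 in WT and 149, 102, 95 and 13 in *rrp6Δ*, while *CYT1* (YOR065W) had 73, 59, 63 and 162 in WT and 75, 48, 103 and 202 in *rrp6Δ*. SUT777 was lowest and *CYT1* highest in number 4 of both strains. SUT777 had 199 and 212 counts per 100 of *CYT1* in *rrp6Δ* replicates 1 and 2, and 3.09 and 6.44 in WT and *rrp6Δ* replicate 4. Its number 4 deviation was -2.08 (edgeR FDR of the number test 0.0011), and that of *CYT1* was 1.27. Among the rows opposite to members, low values in number 4 were not particular to SUT777. The deviation was -0.92 for NUT0539, -0.96 for CUT270, -0.57 for NUT0896 and -0.56 for SUT641. It was -0.26 for NUT0104 over *COX9* and -0.03 for SUT609 over *COX5B*. For NUT1369, NUT0496 over *COX12* and NUT1138 over *COX5B* it was 0.09, 0.27 and 0.535. NUT0896 and NUT0496 also passed the number test (edgeR FDR = 0.0561 and 0.0815). No share over all NUTs, CUTs and SUTs is given for number 4, so these patterns cannot be called local to the members. In WT replicates 1 to 4, 75, 86, 171 and 303 transcripts of the whole table had 0 counts, and in *rrp6Δ* 0, 1, 0 and 3. The strain difference of SUT777 was 0.91 (SE 0.59, edgeR FDR = 0.254), and with the block it was called higher (FDR = 0.00853). SUT777 was chosen for description after its values were seen.

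**Figure D5:**
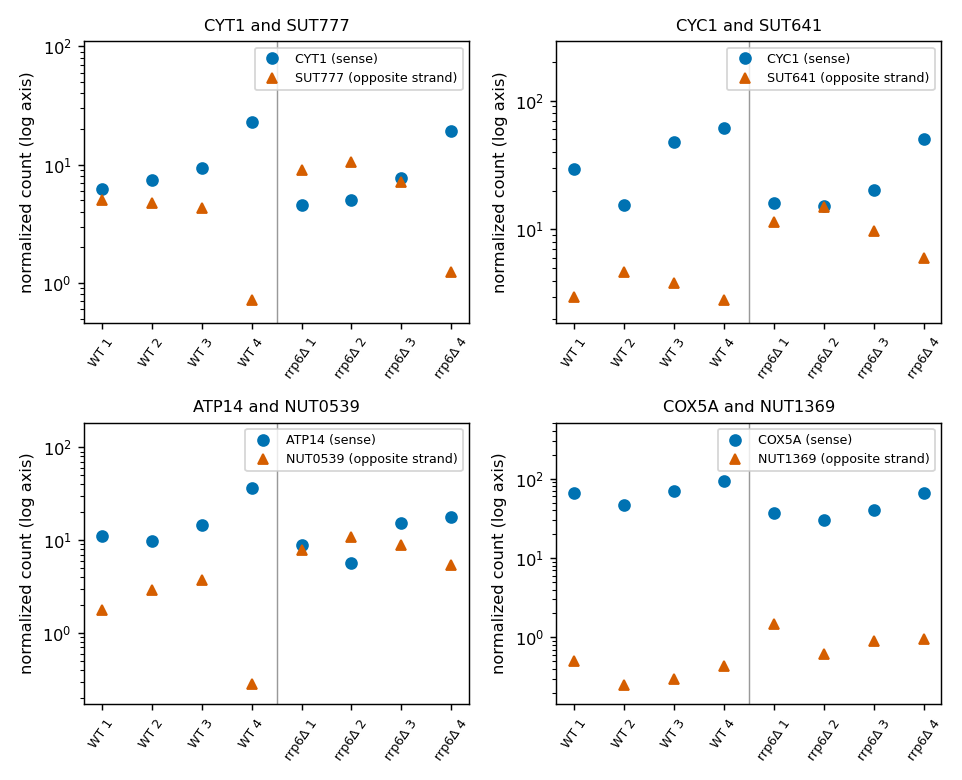
Normalized counts on a log axis in the 8 libraries for 4 members (circles) and for the noncoding transcript on the opposite strand (triangles). SUT777 falls from 9.09 and 10.6 in *rrp6Δ* replicates 1 and 2 to 1.24 in replicate 4, where *CYT1* is at its highest for that strain, 19.3.

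Antisense rows of their own are listed for *ATP3*, *ATP14*, *COX6* and *CYC1*, a class in which the authors kept only antisense signals that changed in these samples, so no count of calls is drawn from them. AS_YHR051W, opposite to *COX6*, had counts of 8, 8, 6 and 1 in WT and 50, 30, 45 and 10 in *rrp6Δ*. AS_YBR039W, opposite to *ATP3*, had 2, 4, 2 and 1 in WT and 23, 22, 34 and 5 in *rrp6Δ*. Both were lowest in replicate 4 of each strain, and *rrp6Δ* replicate 4 was near the WT libraries. On the same strand, 7 members overlap another row of the table, and reads in such an overlap are counted on both. *COX5B* and *QCR9* are the members with an intron.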

How the data were processed

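The authors extracted total RNA with hot acid phenol, depleted rRNA, sequenced strand-specific single reads of 75 bases on a SOLiD instrument, aligned these with bfast to the sacCer3 genome and used bamutils for counting. Alignments with and without rRNA and tRNA reads are described, and which of them gave the table is not stated. The authors deposited raw read counts per transcript and library, which were analysed here. Their normalized signal and the columns of their own comparison (log2 fold change, p-value, FDR) were not used.

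The analysis used edgeR 4.0.16 under R 4.3.3 (TMM over all 10054 transcripts, no filter, glmQLFit and glmQLFTest without covariates, Benjamini-Hochberg over all transcripts). The standard error (SE) is the size of the log2 fold change over the square root of F. Log2 ratios within a number used normalized counts (CPM) plus 0.5. Isoform shares were compared with exact permutation tests in Python 3.11.15 with numpy 2.4.6. Figures were drawn with matplotlib 3.10.9. DESeq2 1.42.0 and other scalings, filters and thresholds were alternatives. Total counts of 6904004 to 12666126 per library and a common biological coefficient of variation of 0.302 set the precision. On simulated data for the comparison of strains over 10054 transcripts, 43 of 100 changes of log2 1 and 99 of 100 of log2 2 were called. The simulated counts had a common dispersion and no effect of the replicate number. These shares therefore do not give the power for the members, which varied between the numbers.

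The labels number the libraries of each strain 1 to 4. After removing strain means, log2 values of same-numbered libraries correlated at 0.389 to 0.558 over 9603 transcripts and other pairs at -0.377 to 0.003, so the replicate number was used as a block beside the main fit. The series calls the libraries biological replicates, and p-values measure the spread between them.

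Per-library values are given for called members, for isoform pairs, for *NDI1* and for the highest and lowest log2 fold change of each complex, and at most 2 called genes of each list are named. The genes and lists were chosen with earlier results of these data known. Mitochondrially encoded subunits were not analysed here.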

Additional observations from a re-analysis of the deposited data

Results flagged for a closer look

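In 11 of 74 sets of 4 libraries, 1 library lay farther from the other 3 than Dixon's test at 95% allows, a test that chance passes in about 1 set of 20. All 11 were replicate 4 and all were high. In WT, replicate 4 stood apart for *SDH1* at 140 normalized counts, *SDH3* at 42.8, *SDH4* at 64.9, *COX8* at 50.4, *ATP1* at 543, *ATP15* at 27.1, *CYC7* at 18.7 and *NDI1* at 67.1. In *rrp6Δ*, it stood apart for *SDH4* at 31.6, *CYC1* at 50.7 and *NDI1* at 32.0. The sets are not independent, since they come from the same libraries.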

How the results depend on the processing

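Of 234 values recomputed for the 13 members described by library, 182 kept their direction and their side of the thresholds, 11 lost a call, 11 gained one and 30 changed sign, 18 of them in settings that keep every library. The members called lower numbered 1, and 0 at an FDR of 0.05, 12 by fold change alone, 0 with TMM factors from ORF-Ts only, 0 with library totals alone, 0 with at least 10 counts in every library, 12 with the replicate block, and 3 without number 4 in both strains. Leaving out 1 library gave 0 to 11 lower and 0 to 1 higher. Each such fit keeps the number of that library in 1 strain only. ORF-Ts called lower numbered 820, and 511 at an FDR of 0.05, 149 by ORF-T scaling, 85 by library totals, 109 with at least 10 counts, and 269 with the block and ORF-T scaling, while those called higher numbered 120, and 188 by fold change alone, 226 by ORF-T scaling, 222 by library totals, 73 with at least 10 counts and 315 with the block and ORF-T scaling. Leaving out 1 library gave 389 to 920 ORF-Ts lower, and log2 fold changes of -0.40 to 0.079 for *COX5B*, -0.28 to 0.13 for *COX7*, -0.58 to 1.52 for *CYC7*, -1.54 to 0.33 for *NDI1*, -0.39 to 0.091 for *QCR7* and -0.71 to 0.23 for *SDH2*. With ORF-T scaling the log2 fold changes that turned positive were *COX5B* 0.068, *COX7* 0.20, *CYC7* 0.30 and *QCR7* 0.16. With library totals they were *ATP5* 0.0011, *COX5B* 0.073, *COX7* 0.24, *CYC7* 0.18 and *QCR7* 0.16. With at least 10 counts they were *COX7* 0.11, *CYC7* 0.18 and *QCR7* 0.067, and with filterByExpr *CYC7* 0.0006. With the replicate block *CYC7* was 0.32, and with the block and ORF-T scaling *COX5B* was 0.10, *COX7* 0.19, *CYC7* 0.63 and *QCR7* 0.12. Without number 4 in both strains *CYC7* was 0.95. The cause was not tested. *COX5A* was also called with DESeq2, edgeR's exact test and filterByExpr. The 11 lost calls were all those of *COX5A*, the only member called in the main fit. It was not called at an FDR of 0.05, with library totals, with at least 10 counts, or with ORF-T scaling with or without the block. Leaving out WT replicate 1, 3 or 4, or *rrp6Δ* replicate 1, 2 or 3, also removed its call. The test of the replicate number and the setting without number 4 were chosen after seeing the data.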
